A study of Homo sapiens with 6 samples.

Results

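The genes described here build and move melanosomes and lysosomes. They are 45 protein-coding genes picked by name from GENCODE annotation, of 20015 protein-coding genes in all. The rule that picks them uses names and no measured value, though it was set with earlier results of these data known. The set holds 9 genes for subunits of the V0 sector of the vacuolar ATPase (V-ATPase) and 13 for the V1 sector. It also holds 8 genes of the BLOC-1 complex, 3 of BLOC-2, 2 of BLOC-3 and 4 of the AP-3 adaptor, with 3 RAB genes and 3 genes for melanosome transport or lysosome size (MLPH, MYO5A and LYST).

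Acetylation of lysine 27 on histone H3 (H3K27ac), a mark of active promoters and enhancers, was mapped by chromatin immunoprecipitation and sequencing (ChIP-seq) in SU-CCS-1. This is an established human clear cell sarcoma (CCS) line that carries the EWSR1::ATF1 fusion, which joins part of the RNA-binding protein EWSR1 to the DNA-binding domain of the transcription factor ATF1. The 3 H3K27ac libraries and 3 input libraries all came from this 1 line, with no treatment named, so no other line or fusion-negative state was compared. The authors merged the H3K27ac data into 1 list of 30784 peaks on hg38 that gives positions only. The list therefore holds no value per replicate and no depth, every count below describes this 1 list, and no test across samples could be made. A gene without a peak was below the calling cutoff or was removed by filtering. Of 5 lineage markers of CCS and melanocytes, all 5 (MITF, SOX10, PMEL, MLANA and S100B) had a peak within 3 kb of a start site. The canonical starts of PMEL, S100B and MLANA lay outside peaks, at 82 bases, 279 bases and 4.51 kb from the nearest. None of 4 skeletal muscle, 3 leukocyte or 2 endothelial markers had a peak within 3 kb of a start site. Of 3 epithelial markers, KRT8 alone had one, 640 bases wide and 1006 bases from its canonical start.

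Melanosomes are pigment granules that pigment cells build from endosomes, and they share much of their assembly machinery with lysosomes. The V-ATPase pumps protons into these compartments, while the BLOC complexes and the AP-3 adaptor sort and deliver cargo such as the melanin-making enzymes. RAB GTPases then recruit the factors that mature the organelle and carry it along the cytoskeleton. Loss of BLOC or AP-3 subunits causes forms of Hermansky-Pudlak syndrome, with pale skin and hair and a bleeding tendency. Loss of RAB27A, MLPH or MYO5A causes Griscelli syndrome, and loss of LYST causes Chediak-Higashi syndrome. MITF and its relatives TFEB and TFE3 are known to bind CACGTG, an E-box, at many genes of pigment and lysosomal organelles, and ATF1 is known to bind TGACGTCA, the ATF/CREB site.

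Promoter sequences are shown for the 10 genes whose promoter held one of these letter strings, since the position of each string against the start site and the H3K27ac peak is described after them. They come from the RefSeq promoter table for GRCh38.p14 (hg38), run 5′ to 3′ on the strand of the gene, and were shortened to the stretch around the match. Capitals mark an E-box with the flanking letters that extend it toward T and A or toward GT and AC, or an ATF/CREB match.
ATP6V0B (chr1:43974881-43974959, plus strand): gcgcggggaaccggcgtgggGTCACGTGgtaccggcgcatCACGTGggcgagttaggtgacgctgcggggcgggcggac
ATP6V0D1 (chr16:67481158-67481238, minus strand): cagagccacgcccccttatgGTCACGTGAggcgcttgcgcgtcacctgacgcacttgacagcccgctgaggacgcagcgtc
ATP6V0E2 (chr7:149872876-149872967, plus strand): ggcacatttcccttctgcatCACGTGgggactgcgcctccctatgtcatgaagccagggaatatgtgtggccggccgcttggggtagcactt
ATP6V1G1 (chr9:114587689-114587735, plus strand): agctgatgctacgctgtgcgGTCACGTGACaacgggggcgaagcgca
BLOC1S1 (chr12:55716022-55716051, plus strand): caaccTCACGTGACacagcgGTCACGTGAC
BLOC1S3 (chr19:45178677-45178783, plus strand): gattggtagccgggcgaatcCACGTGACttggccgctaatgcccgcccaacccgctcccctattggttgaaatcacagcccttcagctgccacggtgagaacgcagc
HPS3 (chr3:149129587-149129637, plus strand): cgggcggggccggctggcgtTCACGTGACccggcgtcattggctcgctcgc
HPS4 (chr22:26483874-26483903, minus strand): cggccgcagccattggtctcTGACGTCAgc
HPS5 (chr11:18322169-18322277, minus strand): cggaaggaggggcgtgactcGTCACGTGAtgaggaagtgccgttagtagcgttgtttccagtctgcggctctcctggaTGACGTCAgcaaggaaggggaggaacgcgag
MLPH (chr2:237487196-237487250, plus strand): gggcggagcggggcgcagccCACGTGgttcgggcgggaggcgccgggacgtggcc

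Distances below are from the canonical start unless another start is named, and some of these stretches also hold alternative annotated starts. The stretches of ATP6V0E2, BLOC1S3, HPS3 and MLPH touched no annotated exon, and the others overlapped 16 to 30 bases of annotated exons. The promoter of BLOC1S1, a subunit shared by BLOC-1 and the BORC complex that positions lysosomes, held 2 E-boxes. They began 18 and 2 bases before the canonical start, and the nearer one ran across it. The promoter of ATP6V0B, which encodes a ring subunit of the proton channel, also held 2, at 57 and 39 bases. A single E-box lay 59 bases before the start of ATP6V0D1, 58 before that of ATP6V1G1, 30 before that of HPS3, 35 before that of MLPH, 87 before that of BLOC1S3 and 115 before that of HPS5. The match of ATP6V0E2 stood apart, since it lay 72 bases before an alternative start that is itself 1001 bases upstream of the canonical one.

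Of the 45 genes, 33 had a promoter window in the RefSeq table, a window being the 250 bases before to 50 bases after a start, and CACGTG was present in at least 1 window of 9 of the 33 (27.3%). The same letters were found in 10.9% of 15344 protein-coding genes in the table and in 12.7% of those with a promoter H3K27ac peak. The gap was smaller with 500 bases on either side of the canonical start, at 24.2% beside 18.4%. E-boxes extended to TCACGTGA were present in 5 of the 33 (15.2%), beside 1.70% of all genes and 2.28% of genes with a promoter peak. The form GTCACGTG, read on both strands and overlapping the others, was present in 7 (21.2%), beside 4.11% and 5.29%. For positions, 1 window was taken per gene, the one nearest its canonical start. In these windows all 10 E-box matches of the listed genes began within 120 bases upstream of the start, though the nearer BLOC1S1 match ran across it. Over all genes, 55.4% of 1543 such matches began in that band, which makes up 40.7% of the possible positions. Of the 11 E-box positions in the 9 genes, 9 lay inside an H3K27ac peak. The match of ATP6V0E2 lay 155 bases from the nearest peak, and that of BLOC1S3 lay 154 bases away, in a gap between a pair of peaks. These matches describe letters in the sequence, not binding, and whether any factor occupies them was not tested.

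The ATF/CREB letters TGACGTCA were present in 2 of the 33 genes (6.06%), beside 3.06% of all genes and 3.84% of those with a promoter peak. In HPS5, which encodes a BLOC-2 subunit, the match lay 59 bases before the start and shared the promoter with the E-box further upstream. In HPS4, which encodes a BLOC-3 subunit, it lay 100 bases before the canonical start, at chr22:26483876-26483883. The start of the divergent gene SRRD, at 26483877, falls inside that match. Both matches were inside a peak. The M-box letters TCATGTG, a form bound by MITF in pigment enzyme genes, were present in ATP6V0C and BLOC1S3 (6.06%, beside 3.10% of all genes). With 500 bases on either side of the canonical start they were in 5 of the 33 (15.2%), beside 6.09%. The AP1 letters TGAGTCA were present in LYST alone, at an upstream start (3.03%, beside 5.31% of all genes). With 33 genes, each gene is about 3 percentage points of these shares, and the plot of motif shares sets all 6 strings side by side.

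**Figure D1:**
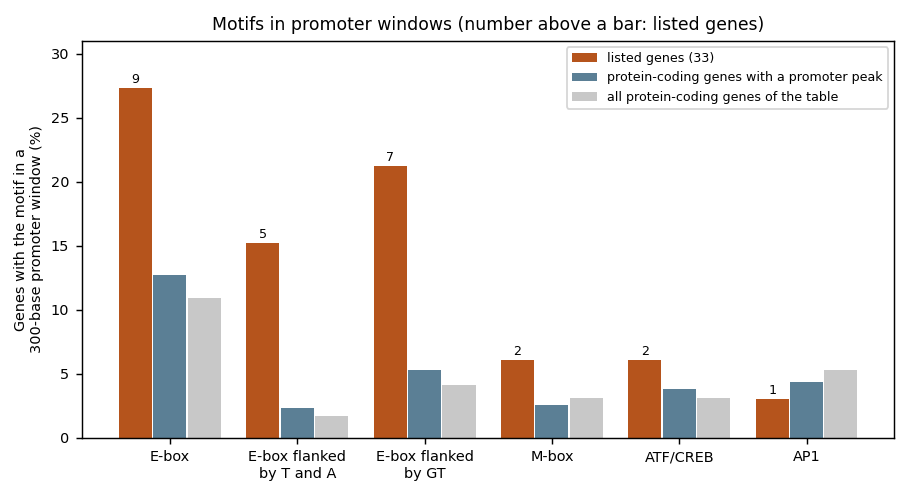
Bars give the percent of genes with each letter string in a 300-base promoter window, for the 33 listed genes in the RefSeq table, for protein-coding genes with a promoter H3K27ac peak and for all 15344 protein-coding genes in the table. The number above a bar counts listed genes; the E-box (CACGTG) was in 9 and the ATF/CREB site in 2.

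Most of these genes carried H3K27ac at their promoters in SU-CCS-1. A peak lay within 3 kb of an annotated start, here called a promoter peak, in 42 of 45 genes (93.3%), beside 63.4% of all protein-coding genes. The 3 without one were ATP6V0D2, ATP6V1C2 and ATP6V1G3, each a V-ATPase subunit isoform known mainly from particular tissues. The canonical start itself lay inside a peak in 38 of 45 (84.4%), beside 53.5% of all protein-coding genes. These genes were not matched to the rest for how widely they are used, so a share above the background is not particular to melanosome or lysosome genes.

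The widest promoter peak of a gene had a median of 1840 bases over the 42 genes, with quartiles at 1312.5 and 2560 and a range from 460 to 8660. Over all 12691 protein-coding genes with a promoter peak the median was 1600 bases and the quartiles were 1110 and 2250. Widths above 2000 bases were found in 19 of the 42 (45.2%) beside 32.0% of all, and widths above 4000 bases in 5 (11.9%) beside 6.42%. Those 5 genes were ATP6V0C, ATP6V0A4, LYST, BLOC1S1 and AP3D1. At the other end, AP3B1 and ATP6V1B1 had 460 and 530 bases. A width reflects how the caller joined neighbouring enriched stretches and not the spread of the mark alone. More than 1 promoter peak was present in 15 of the 42 genes (35.7%), beside 30.3% of all.

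**Figure D2:**
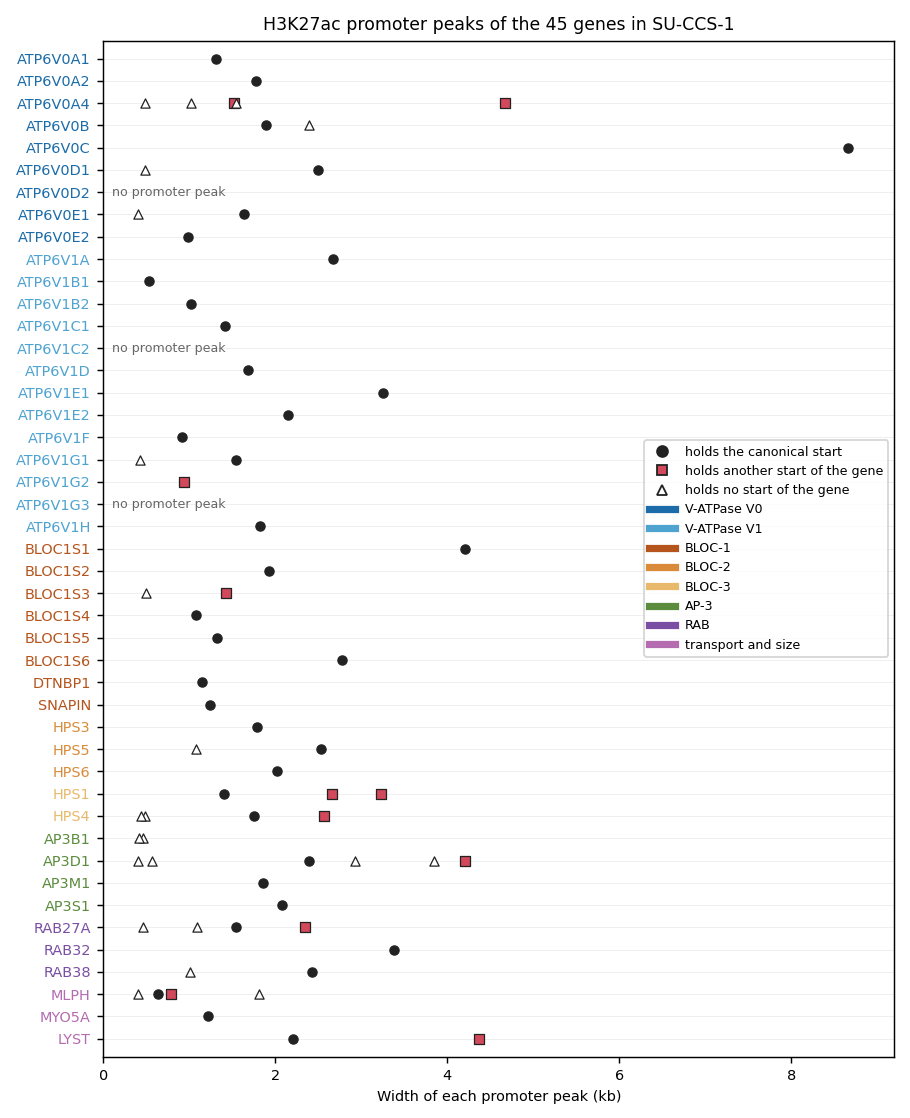
Each symbol is 1 promoter peak of a listed gene (x axis, width in kb), with filled circles for peaks that hold the canonical start, squares for peaks that hold another start of the gene and open triangles for peaks that hold none. The 8.66 kb peak of ATP6V0C stands furthest to the right, and ATP6V0D2, ATP6V1C2 and ATP6V1G3 have no promoter peak.

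**Figure D3:**
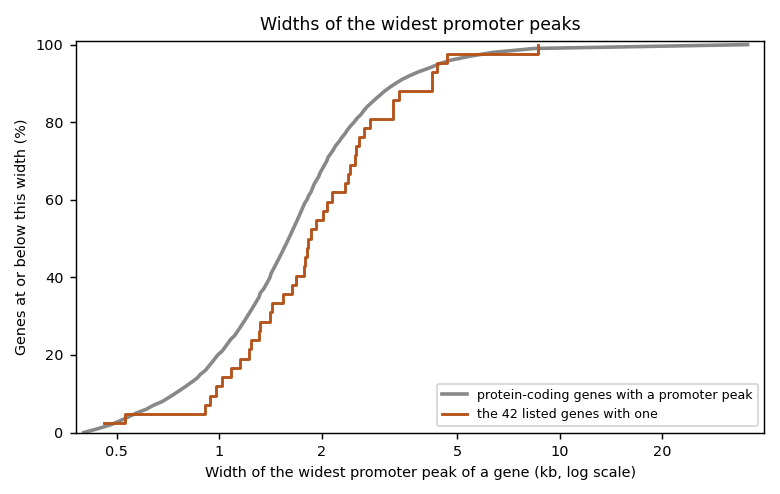
Cumulative percent of genes (y axis) at or below a given width of the widest promoter peak (x axis, kb, log scale), for the 42 listed genes with one and for all protein-coding genes with one. The curve of the listed genes runs to the right of the other over most of its course, with medians of 1840 and 1600 bases.

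The V0 sector is the membrane-embedded proton channel of the V-ATPase, and 8 of its 9 genes had a promoter peak. ATP6V0C encodes the proteolipid that forms most of the rotating ring. Its peak, chr16:2513301-2521960, was 8660 bases wide and ran from 651 bases upstream of the start to 8008 bases downstream. It covered the whole gene of 6.27 kb and the start of AMDHD2, a gene on the same strand 6419 bases away, and 99.1% of protein-coding genes with a promoter peak had a narrower one. ATP6V0B, for another ring subunit, had a peak of 1890 bases over its start and one of 2390 bases at its 3′ end and beyond that held the start of B4GALT2. The latter is the wider of the pair and is nearer to B4GALT2 than to any start of ATP6V0B. ATP6V0D1, which links the ring to the V1 stalk, had 2500 bases over its start (chr16:67479861-67482360) and a second peak of 480 bases. ATP6V0E1, a small membrane subunit, had peaks of 1640 and 400 bases.

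The a subunits hold the proton half-channels and direct the pump to its compartment. ATP6V0A1 and ATP6V0A2 each had 1 peak over the start, of 1310 and 1770 bases. ATP6V0E2, a second e subunit, had 1 peak of 980 bases that ended 61 bases past the canonical start and otherwise lay upstream. ATP6V0A4, an isoform best known from the kidney, was unlike the others. Its canonical start was 11.6 kb from the nearest peak, and its 5 promoter peaks sat at or near internal starts. The widest, chr7:138752921-138757590, measured 4670 bases and held an internal start, and 95.6% of protein-coding genes with a promoter peak had a narrower one. The 5 peaks summed to 9230 bases.

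The V1 sector hydrolyses ATP in the cytoplasm and turns the rotor, and 11 of its 13 genes had a promoter peak, of 12 peaks in all. For the catalytic A subunit, ATP6V1A, the peak was 2670 bases wide (chr3:113745281-113747950) and reached 1754 bases upstream, past the start of NAA50 on the opposite strand at 786 bases. ATP6V1E1, for a stator subunit, had the widest V1 peak at 3250 bases. The others were ATP6V1H, a regulatory subunit, at 1820 bases, ATP6V1D, a rotor subunit, at 1680, ATP6V1G1, a stator subunit, at 1540 with a second of 430, ATP6V1C1 at 1410, ATP6V1B2 at 1020 and ATP6V1F at 910. In ATP6V1D the same peak held the start of EIF2S1, 524 bases away on the opposite strand. The peak of ATP6V1F, another rotor subunit, began only 75 bases before the start and lay almost wholly inside the gene.

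The V-ATPase genes were grouped by where their products are known to be used. All 15 broadly used subunits had a promoter peak, and in all 15 a peak held the canonical start, with widths of 910 to 8660 bases and a median of 1680. Of 7 isoforms known from restricted tissues such as kidney, inner ear, osteoclast, brain or testis, 4 had a promoter peak (57.1%). The canonical start lay inside a peak in 2 of the 7 (28.6%). Over all protein-coding genes these shares were 63.4% and 53.5%, so the first is near the background. ATP6V1B1, of kidney and inner ear, had a peak of 530 bases over its start (chr2:70935711-70936240), and only 3.48% of protein-coding genes with a promoter peak had a narrower one. ATP6V1E2, known from testis, had 2150 bases, but its start lies 87 bases from that of RHOQ on the opposite strand and the middle of the peak was nearer to RHOQ. ATP6V1G2, known from brain, had its canonical start 923 bases outside a 940-base peak. That peak held the start of NFKBIL1 and an alternative upstream start of ATP6V1G2. For these divergent pairs the acetylation could not be assigned to 1 gene of the pair.

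The 3 genes without a promoter peak differed in how far the mark was. The nearest peak lay 243 kb from the canonical start of ATP6V0D2 and 141 kb from that of ATP6V1G3. ATP6V1C2 had a peak of 1120 bases inside the gene, 23.5 kb past its start. In the promoter windows of the restricted isoforms, the observed-to-expected ratio of CpG dinucleotides was 0.0337 for ATP6V1B1, 0.225 for ATP6V0A4, 0.265 for ATP6V1G2 and 0 for ATP6V1G3. The ratio was 0.862 for ATP6V1C2. The median was 0.863 over the 33 listed genes with a window, 0.855 over protein-coding genes with a promoter peak and 0.365 over those without. Not in the RefSeq table were ATP6V0D2, ATP6V0E1, ATP6V1A, ATP6V1B2, ATP6V1C1, ATP6V1E2, ATP6V1H, BLOC1S4, HPS1, AP3B1, AP3D1 and RAB38.

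BLOC-1 is an endosomal complex that forms the tubules through which melanosome cargo leaves, and all 8 of its genes had a promoter peak. BLOC1S1 had the widest, chr12:55715471-55719680, at 4210 bases. It reached 575 bases upstream and 3634 downstream and so covered most of the 4.05 kb gene. BLOC1S6, which encodes pallidin, had 2780 bases and BLOC1S2 had 1930. DTNBP1 (dysbindin), SNAPIN, BLOC1S5 (muted) and BLOC1S4 had single peaks of 1150, 1240, 1320 and 1080 bases over the start. The median of the 8 widest peaks was 1375 bases.

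BLOC1S3 differed from its partners in the complex, because its canonical start lay in a gap between peaks. A peak of 500 bases ended 434 bases upstream and held the start of TRAPPC6A on the opposite strand, and a peak of 1430 bases began 67 bases downstream. Starts with a peak on both sides within 1 kb, and none over the start, were found in BLOC1S3 and AP3B1 of the 45 genes (4.44%) and in 206 of all protein-coding genes (1.03%). A gap of this kind can hold acetylation below the calling cutoff.

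BLOC-2 and BLOC-3 act after BLOC-1, BLOC-2 in targeting the cargo tubules and BLOC-3 as the exchange factor that activates RAB32 and RAB38. All 5 genes had a peak over the canonical start. Among the BLOC-2 genes HPS5 had 2530 bases (chr11:18320721-18323250), shared with GTF2H1, whose start is 427 bases away on the opposite strand, and a second peak of 1080 bases. HPS6, a gene with a single start, had 2020 bases and HPS3 had 1790. The BLOC-3 genes carried more peaks. HPS1 had 1400 bases over its canonical start and wider peaks of 3230 and 2660 bases that held internal starts. These wider peaks began 21.9 and 25.8 kb downstream, and the 3 promoter peaks summed to 7290 bases. HPS4 had 1750 bases over the canonical start, 2570 bases at an internal start and smaller peaks of 480 and 440 bases.

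AP-3 is a coat adaptor that sorts tyrosinase and lysosomal membrane proteins from endosomes. Its 4 subunit genes ranged from near the bottom to near the top of the width distribution. AP3B1, for the large beta subunit, had 460 and 410 bases on either side of its start (chr5:78294001-78294460 and chr5:78295221-78295630), with the nearer edge 238 bases away. None of its 20 annotated starts was inside a peak, and 1.47% of protein-coding genes with a promoter peak had a narrower one. AP3D1, for the large delta subunit, had 6 promoter peaks that summed to 14340 bases. The peak over its canonical start measured 2390 bases, and the widest, of 4210 bases, lay at an upstream start shared with DOT1L. Peaks of 3850 and 2930 bases held no start of the gene. AP3M1 and AP3S1, for the medium and small subunits, had 1860 and 2080 bases over starts shared with ADK at 393 bases and ATG12 at 370 bases. In both the middle of the peak was nearer to the neighbour.

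**Figure D4:**
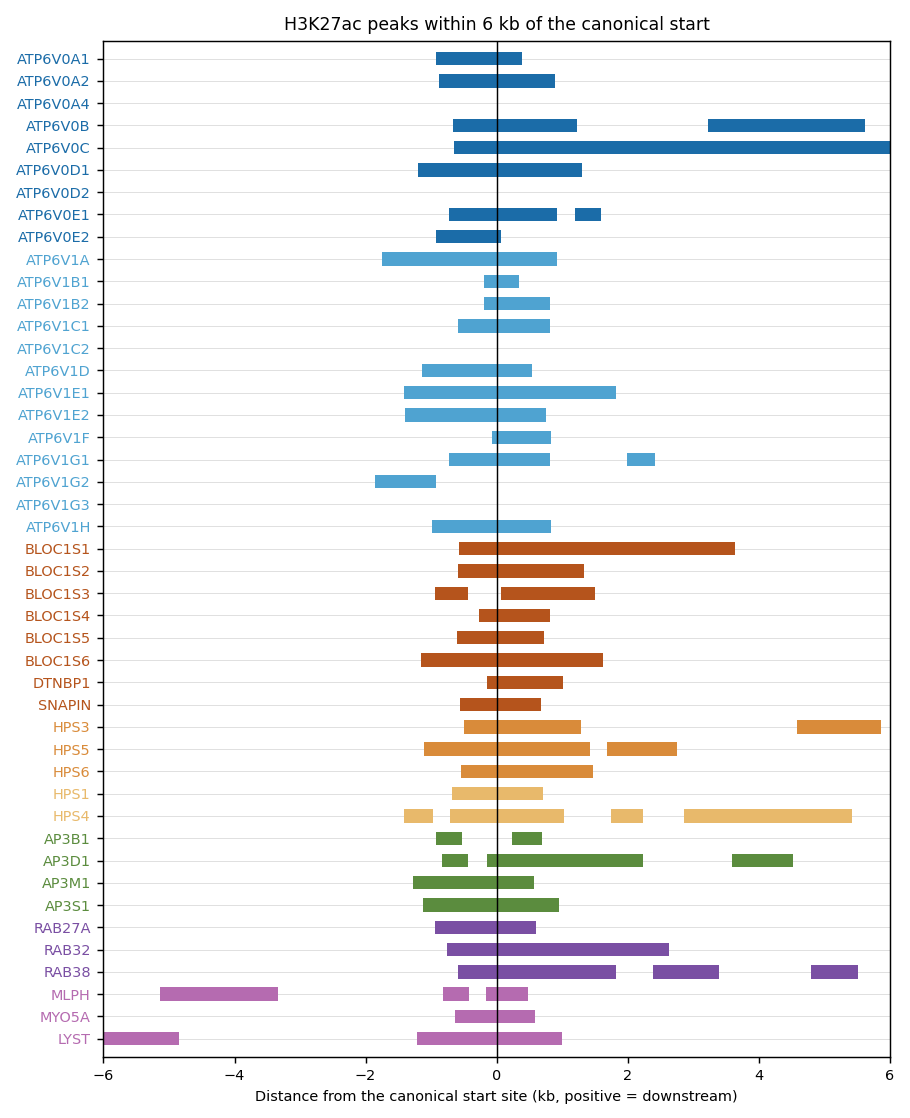
Bars show the promoter and gene-body peaks of each listed gene within 6 kb of its canonical start. The x axis gives kb from that start, positive into the gene, and other peaks in this range are not drawn. The starts of BLOC1S3 and AP3B1 fall between a pair of peaks, and those of ATP6V0A4, ATP6V0D2, ATP6V1C2 and ATP6V1G3 have no peak in view.

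RAB27A, MLPH and MYO5A form the chain that ties a mature melanosome to actin: the GTPase sits on the granule, melanophilin binds it and myosin Va walks. RAB27A had 4 promoter peaks. The one over the canonical start, chr15:55289211-55290750, measured 1540 bases. The widest, of 2340 bases, had its near edge 28.4 kb upstream and held the gene's first start. That peak also held the starts of PIGB and PIGBOS1. MLPH had peaks of 640 bases over its canonical start (chr2:237487091-237487730) and of 400 and 1810 bases upstream. A further peak of 790 bases began 22.7 kb downstream and held internal starts. MYO5A had 1 promoter peak of 1220 bases (chr15:52528291-52529510).

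RAB32 and RAB38 are related GTPases that deliver melanin-making enzymes to immature melanosomes. RAB32 had 1 peak of 3380 bases (chr6:146543081-146546460), and 90.4% of protein-coding genes with a promoter peak had a narrower one. RAB38 had 2420 bases over its start (chr11:88173621-88176040) and 1010 bases just downstream. The peaks over the starts of RAB32 and RAB38 extended mainly into the gene, by 2627 and 1822 bases. LYST, a very large protein that limits lysosome size, had 2210 bases over the canonical start and 4370 bases at an upstream start (chr1:235880621-235884990). Between them lay 4 further peaks of 520 to 1540 bases.

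**Figure D5:**
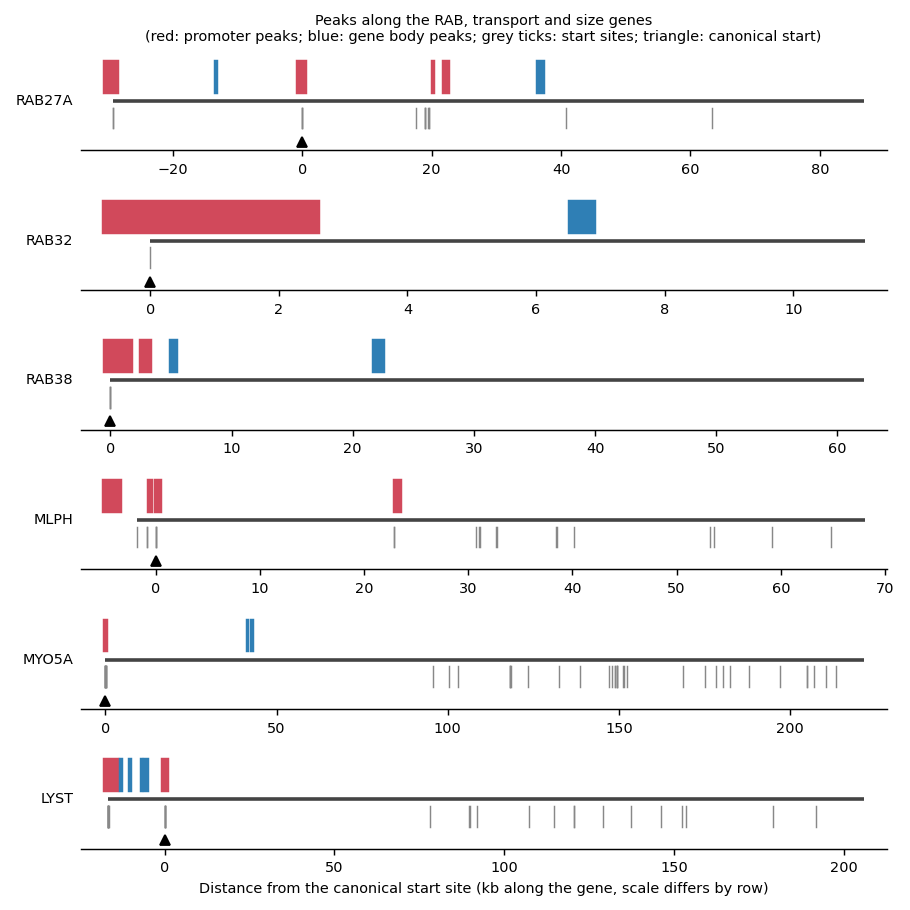
Each row maps 1 gene of the RAB, transport and size groups, with distance from the canonical start in kb along the gene (the scale differs by row), promoter peaks in red, other peaks inside the gene in blue and annotated starts as grey ticks. MLPH is the gene without a blue peak, and the 4 blue peaks of LYST lie between its upstream and canonical starts.

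Across the listed genes, 71 promoter peaks were counted, of which 38 held the canonical start, 11 held another start of the gene and 22 held none. These shares (53.5%, 15.5% and 31%) were near those over all protein-coding genes (56%, 13.8% and 30.2%). The widest promoter peak was not the one over the canonical start in 11 of 42 genes (26.2%), beside 24.3% of all protein-coding genes. Peaks over the canonical start reached a median of 701 bases upstream and 906 bases downstream, beside 668 and 847 bases over all. They reached further into the gene than away from it in 27 of 38 (71.1%), beside 65.3%. In BLOC-1, BLOC-2 and BLOC-3 this held for all 12 such peaks. A promoter peak held the canonical start of another protein-coding gene in 13 of 42 genes (31%), beside 25.3% of all.

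Inside the genes, more than 3 kb from any start of the same gene, 17 of 45 (37.8%) had at least 1 further peak. The share was 17.9% of all protein-coding genes. Such peaks can mark enhancers within introns or lie at a start of another gene, and the gene they act on is not known from these data. There were 30 of them, with a median width of 790 bases and a range from 400 to 2530, beside a median of 820 bases over all genes. Long genes have more room for such peaks, and the listed genes were longer, at a median of 43.5 kb beside 27.5 kb. Among genes of 20 kb or less, 2 of 13 had one, beside 4.81% of all genes of that length. The counts were 4 of 12 beside 15.5% from 20 to 50 kb, 6 of 13 beside 26.3% from 50 to 100 kb and 5 of 7 beside 43.9% above 100 kb. Per 100 kb of gene there were 1.12 peaks in the listed genes and 0.682 in all.

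By role, gene-body peaks were found in 5 of 22 V-ATPase genes, in 5 of 13 BLOC genes, in 2 of 4 AP-3 genes and in 5 of the 6 RAB, transport and size genes, beside 17.9% of all protein-coding genes. The RAB, transport and size genes were also the longest of these, at a median of 93 kb beside 46.3 kb for the V-ATPase, 36 kb for the BLOC and 68 kb for the AP-3 genes. Per 100 kb of gene the BLOC genes had 1.79 such peaks, the RAB, transport and size genes 1.56, the AP-3 genes 0.868 and the V-ATPase genes 0.664, beside 0.682 in all genes. HPS5 and LYST had 4 each. In HPS5, 3 of the 4 lay close together, 7.74 to 11.0 kb past the start. RAB38 had peaks of 720 and 980 bases at 4.80 and 21.6 kb, RAB32 one of 420 bases at 6.50 kb, and MYO5A had 770 and 590 bases at 42.3 and 41.1 kb. RAB27A had 1210 bases at 36.2 kb and 430 bases between its first and canonical starts, 13.2 kb before the latter. The 2530-base peak of HPS1 lay nearer to the start of its neighbour PYROXD2 than to a start of its own. In AP3B1, whose promoter peaks were narrow, the pair of body peaks measured 870 and 810 bases, 197 and 290 kb past the start.

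Clusters of peaks were examined by joining peaks up to 12500 bases apart, which gave 17049 regions, and ranking them by summed peak width. The curve of ranked widths reached a slope of 1 at 7.97 kb, and 879 regions lay past that point. This ranking uses widths, not reads, so the regions are not super-enhancer calls. A region past the point overlapped 8 of 45 genes (17.8%), beside 7.58% of all protein-coding genes. None of the 13 V1, 3 BLOC-2 or 3 RAB genes was among the 8. These groups are too small to set against a share of 7.58%. BLOC1S1 ranked highest at 232, in a region of 7 peaks summing to 16.08 kb (chr12:55703531-55743740) that also overlapped ITGA7, RDH5, GDF11 and CD63, the last a melanosome and lysosome membrane protein.

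The other regions were of unlike makeup. That of ATP6V0C ranked 327 with 13.73 kb, of which the promoter peak alone gave 8.66 kb. LYST, at rank 559 with 10.20 kb in 6 peaks, was the one gene of the 8 whose region overlapped no other protein-coding gene. AP3D1 ranked 455 in a region with DOT1L. HPS1 ranked 623 in a region with PYROXD2 that held internal starts of HPS1 and ended 21.9 kb from its canonical start. BLOC1S4, ATP6V0B and SNAPIN had peaks of 1080, 1890 and 1240 bases over their own starts and lay in gene-dense regions at ranks 441, 709 and 734. Just below the point were HPS4 at rank 979 with 7.50 kb and ATP6V1E1 at rank 1105 with 6.98 kb. Leaving out peaks that lay wholly within 2.5 kb of any start left 2 genes, ATP6V0C and BLOC1S1, overlapped by a region past the point. That is 4.44%, beside 2.43% of all protein-coding genes. Wider peaks over a start stayed in, among them the 8.66 kb peak of ATP6V0C, so this setting does not show clusters away from starts. Ranking by region span instead put 9 of 45 genes (20%) in regions past the point, beside 9.25% of all protein-coding genes. LYST dropped out under that ranking, and BLOC1S2 and HPS6 came in.

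Other genes of the same organelles were counted for context from a second list. Of 43 protein-coding genes, 37 had a promoter peak (86.0%), beside 63.4% of all protein-coding genes, with a median widest peak of 1620 bases beside 1600. The lysosomal proteins had 18 of 20, the BORC subunits 5 of 5, the V-ATPase accessory genes 3 of 3, the HOPS and tether genes 5 of 6, other RAB genes and effectors 4 of 6 and other AP-3 subunits 2 of 3. The 6 without one were AP3B2, a neuronal AP-3 subunit, VPS41 of the HOPS tether, RAB27B, the close relative of RAB27A, its effector SYTL2, and the lysosomal enzymes GAA and PPT1. RAB27A and RAB27B thus differed, with 4 promoter peaks in the first and the nearest peak 470 kb from the start of the second.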

How the data were processed

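H3K27ac ChIP-seq and input libraries (3 each) were prepared from pellets of SU-CCS-1 cells, grouped here by sample title. Per the study's methods and the submitters' processing notes, alignment by the authors was to hg38, with BWA-MEM (0.7.10-r789). They removed duplicates with samtools, called broad peaks with MACS2 (2.2.6) against input and removed peaks in listed unreliable regions. The deposited file holds 1 merged peak list with chromosome, start, end and name and no other measurement, so depth and replicate agreement are unknown. How the replicates were joined into the list is not given in the sources used here.

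Peaks were compared with GENCODE version 44. A promoter peak had a base within 3 kb of any annotated start of a gene, and a gene-body peak overlapped the gene without being a promoter peak of it. The canonical start was that of the Ensembl canonical transcript. Motifs were searched on both strands in RefSeq promoter windows, of which all 21590 compared equalled the hg38 sequence. The counting code was tested on simulated peaks. Python 3.11.15, numpy 2.4.6, pandas 2.3.3 and matplotlib 3.10.9 were used. All 45 genes are named, with neighbours that share or lie nearer to a promoter peak. The genes and lists were chosen with earlier results of these data known. Counts are complete over fixed lists and carry no sampling interval. No p-value was computed. Alternatives were other windows, start definitions, wider peaks in place of a stricter cutoff, and other region rankings.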

Additional observations from a re-analysis of the deposited data

How the results depend on the processing

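For 10 counts and medians, 36 alternatives were tried, of which 28 gave similar values and 8 moved. Each was compared with its own main value alone, so these labels do not judge the gap between listed genes and background. With the widest 25% of peaks, promoter peaks remained in 25 listed genes and 5340 protein-coding genes, and with the widest 50% gene-body peaks remained in 7 and 1986, fewer because fewer peaks were counted. With peaks near starts left out, 2 listed and 486 protein-coding genes lay in regions past the slope-1 point. The median over protein-coding genes was 1560 bases with canonical starts alone and 1760 bases with summed widths. Windows of 1 and 5 kb kept the same 42 genes. Canonical starts alone lost ATP6V0A4, and a peak required to hold a start lost AP3B1 (41 each). Attributing each peak to its nearest start, an alternative chosen after seeing the data, gave 38 of 45 beside 55.0%. With 500 bases on either side of the canonical start, CACGTG was in 24.2% of the 33 genes beside 18.4% of all, a smaller gap than in the 300-base windows, while TCACGTGA was in 15.2% beside 2.12%. Wider windows hold more chance matches, and the canonical start alone drops the match of ATP6V0E2. No paired analysis was possible because no column separates the replicates, and for the same reason no replicate could be left out. Without reads, the height of a peak and the depth behind it are unknown.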
